A study of Mus musculus with 7 samples.

Results

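Cytokine, chemokine and NF-kB genes were examined in 7 mouse esophageal epithelial cell lines. The 36 genes were chosen by name, as interleukins and alarmins, chemokines, NF-kB subunits, their inhibitors and feedback genes, and the targets Icam1 and Ptgs2. All 36 were among the 23955 gene names of the count table, and 34 passed the expression filter that left 13768 genes for testing. Il1b and Cxcl11 did not pass. The study compared 2 wild-type (WT) lines, 3 lines carrying p53R172H, a missense allele (mutant), and 2 p53 -/- lines (null, numbered 1 and 3), all of mixed strain background and grown on plastic in KSFM, a serum-free keratinocyte medium. The treatment label 4NQO was given to all mutant and null lines. It names a chemical carcinogen of the upper digestive tract. Neither WT line had it, so genotype and 4NQO cannot be told apart in comparisons with WT. The labels name lines and do not tie them to animals. The p-values therefore reflect only how much these lines vary.

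NF-kB is a family of dimers built from RELA, RELB, REL and the processed products of NFKB1 and NFKB2. Inhibitor proteins of the IkB family hold the dimers in the cytoplasm until signals from receptors for TNF, interleukin 1 or microbial products activate a kinase complex that marks the inhibitors for destruction. The freed dimers switch on chemokines, cytokines and adhesion molecules, and also their own inhibitors, which closes a feedback loop. Squamous epithelium such as the lining of the esophagus stores interleukin 1 alpha and releases TSLP and interleukin 33 as alarm signals.

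Promoter sequences show where the NF-kB binding motif lies near some of these genes. RefSeq promoters of build GRCm38.p6, each from 250 bases before to 50 bases after a start site, matched 26 of the 36 genes. The classical kappaB consensus, searched on both strands, was found in 11 of the 26 genes (Bcl3, Ccl20, Cxcl1, Cxcl2, Cxcl10, Il6, Nfkb2, Nfkbia, Nfkbie, Rel and Tnfaip3), or 42.3%. Of all 27025 genes in the promoter table, 9.55% held it. The genes were listed as known members and targets of the pathway, so this share is a description. No match was found in these windows of Tnf, Il1a, Icam1, Ptgs2 and 11 others. Tslp, Ccl2, Ccl5, Ccl7, Cxcl5, Cxcl11, Cxcl16, Nfkb1, Nfkbiz and Relb had no entry.

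The stretches around the matches are shown for 6 genes that share an identical matched 10-base word with another listed gene. Sequences run 5′ to 3′ along the gene's strand, capitals mark the matches, and overlapping matches run together. Bcl3 shares a word with Cxcl10, but its match lies after its start site and is not shown.
Cxcl1: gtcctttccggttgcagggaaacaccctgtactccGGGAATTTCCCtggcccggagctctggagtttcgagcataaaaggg
Cxcl2: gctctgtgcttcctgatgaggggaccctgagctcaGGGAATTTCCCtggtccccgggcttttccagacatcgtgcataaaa
Nfkbia: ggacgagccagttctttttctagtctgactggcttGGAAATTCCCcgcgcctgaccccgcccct
Cxcl10: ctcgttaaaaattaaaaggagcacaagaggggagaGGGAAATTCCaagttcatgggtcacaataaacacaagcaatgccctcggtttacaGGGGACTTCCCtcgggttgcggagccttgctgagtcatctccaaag
Rel: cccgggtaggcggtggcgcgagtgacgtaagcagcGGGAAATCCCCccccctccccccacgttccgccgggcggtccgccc
Tnfaip3: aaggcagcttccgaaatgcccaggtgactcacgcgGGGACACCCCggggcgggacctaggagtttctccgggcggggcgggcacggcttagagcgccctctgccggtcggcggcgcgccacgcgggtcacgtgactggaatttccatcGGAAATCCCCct

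These stretches lie at chr5:90891139-90891219 (Cxcl1, plus strand), chr5:90903767-90903847 (Cxcl2, plus strand), chr12:55492648-55492711 (Nfkbia, minus strand), chr5:92348948-92349083 (Cxcl10, minus strand), chr11:23771016-23771096 (Rel, minus strand) and chr10:19015411-19015570 (Tnfaip3, minus strand). Cxcl1, Cxcl2 and Nfkbia share 1 word, read on the opposite strand in Nfkbia. Cxcl10 shares a word with Cxcl1 and Cxcl2, and Rel shares 1 with Tnfaip3. A match is a description of the sequence and not evidence of binding in these cells.

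Libraries held 12751118 to 47000225 counts. Values are CPM (counts scaled to library size with TMM factors), which compare libraries for a gene but not genes of different length. Trp53 was at 171.6 to 254 CPM in WT and mutant libraries and at 8.73 and 4.71 CPM in null 1 and null 3. Xist was at 675.4 and 1653 CPM in the WT libraries and at most 0.964 CPM in the others. Of 10 esophageal epithelial markers, 10 reached 1 CPM in WT and null libraries and 9 in mutant libraries. Their sum was 27055 and 37634 CPM in WT 1 and WT 2 and 5862 to 9987 CPM in the other 5 libraries. In WT 1, Krt5 and Krt14 were at 13826 and 11359 CPM, most of that sum. In mutant against WT, Krt5, Krt13 and Epcam fell (edgeR adjusted p = 0.0289, 0.0321 and 0.0495). Krt14, Krt4 and Cdh1 were also lower in every mutant line, without being called. Trp63, Sox2, Pax9 and Krt15 overlapped between mutant and WT, with log2 fold changes of -0.004, 0.74, 0.22 and -0.55. The part of these markers in the results below was not tested. Of 12 immune cell markers, Cd3e had no count and Ptprc, which marks all leukocytes, was at most 0.0609 CPM. Summed, that list was at 89.2 to 93.4 CPM in WT, 52.6 to 95.8 CPM in mutant and 38.0 to 112 CPM in null libraries. Cd68 was at 22.5 CPM or more in each library and was higher in every mutant line than in either null line. S100a8 and S100a9 went the other way, at 46.6 and 29.1 CPM in null 1 and at most 0.976 and 0.549 CPM in mutant libraries. The 8 fibroblast markers summed to 5.61 and 8.2 CPM in WT 1 and WT 2. They summed to 567, 9.73 and 375.9 CPM in mutant 1, 2 and 3, and to 8.03 and 419.6 CPM in null 1 and null 3. Col3a1 and Pdgfrb were high in the same 3 lines, while Lum was at most 0.0203 CPM and Thy1 at most 0.494 CPM. Col1a2 differed from them, at 326 CPM in mutant 1, where it was the largest part of the sum. It was at 10.1 CPM in null 3 but at only 1.51 CPM in mutant 3, near WT 2 (1.06 CPM). Of 6 muscle markers, Myod1 and Des passed 1 CPM only in null 3 (23.0 and 26.0 CPM), while Myh11 and Cnn1 stayed under 1 CPM in every library. Acta1 was similar in null 3 (23.4 CPM) and WT 2 (22.2 CPM). Acta2 was higher in mutant 1 (768 CPM) and mutant 2 (625 CPM) than in null 3 (350 CPM), and lower in the remaining libraries. The sum of this list had the same order, with mutant 1 (773 CPM) and mutant 2 (627 CPM) above null 3 (423 CPM).

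**Figure D1:**
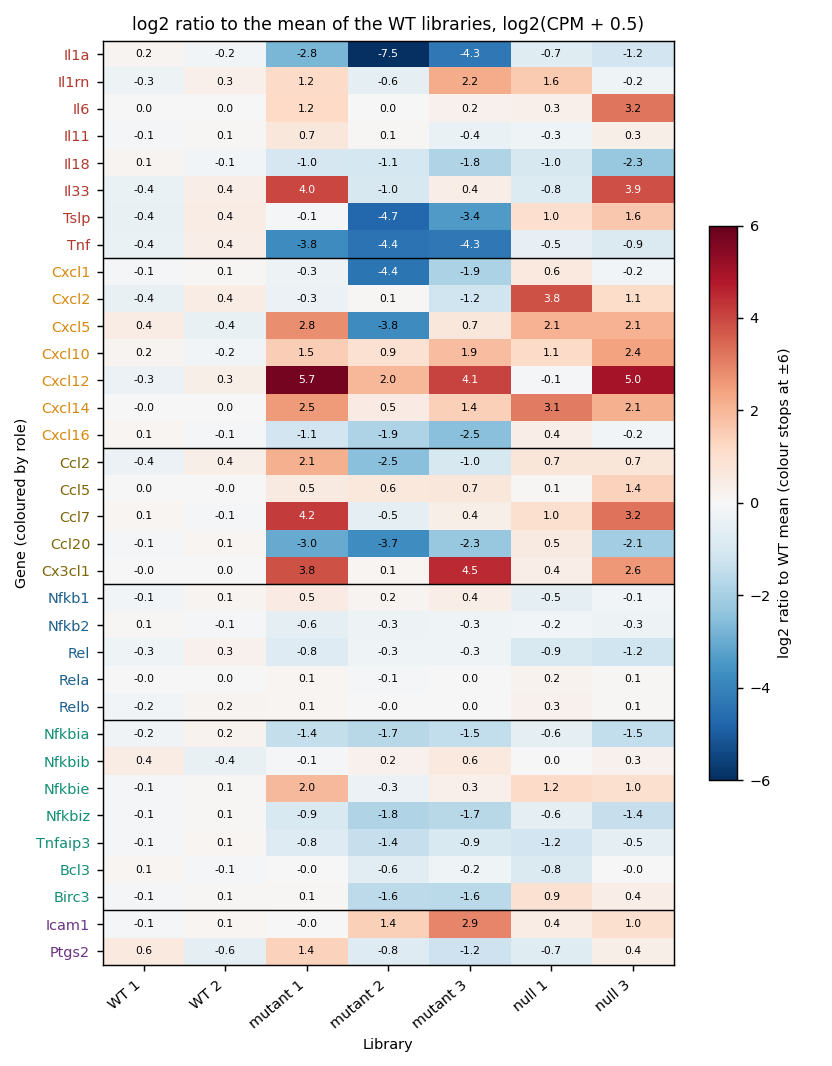
Each cell gives a gene's log2 ratio to the mean of the WT libraries, computed from log2(CPM + 0.5), for the 34 tested genes (rows, coloured by role) in the 7 libraries (columns). Tnf and Il1a are below WT in every mutant library, the NF-kB subunits other than Rel show small ratios, Rel reaches -1.20 in null 3, and Il33, Cxcl12 and Ccl7 are highest in mutant 1 and null 3.

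Among interleukins and alarmins, the inflammatory cytokine Tnf was nearly silent in mutant lines. It had 16, 1 and 3 counts in mutant 1, 2 and 3 and 235, 177, 243 and 150 counts in WT 1, WT 2, null 1 and null 3. In CPM these were 0.325, 0.0237 and 0.0688 in the mutant lines, 7.99 and 14.4 in WT 1 and WT 2, and 7.39 and 5.69 in null 1 and null 3. Every mutant line was below every WT and every null line. Tnf fell in mutant against WT (log2 fold change -6.27, SE 1.0, edgeR adjusted p = 0.0264, n = 3 and 2). In mutant against null it was -5.50 (SE 0.972), with adjusted p = 0.258.

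Il1a, the interleukin stored in epithelial cells, had a similar order. It was at 364 and 292 CPM in WT 1 and WT 2, at 48.0, 1.31 and 16.2 CPM in mutant 1, 2 and 3, and at 198 and 146 CPM in null 1 and null 3. The mutant lines did not overlap with either other group, but the lines themselves spanned a 36.7-fold range. The log2 fold change was -3.91 against WT (SE 1.14, adjusted p = 0.0797) and -2.98 against null (SE 1.10, adjusted p = 0.321). Il1rn, the antagonist that blocks the interleukin 1 receptor, had another order. It was at 27.2 and 42.0 CPM in WT, 75.6, 22.5 and 158 CPM in mutant lines, and 101 and 28.5 CPM in null lines, and the groups overlapped. Mutant 2, the lowest line for Il1a, was also the lowest for Il1rn.

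Tslp, which acts on dendritic cells and type 2 immune cells, was at 49.5 and 91.4 CPM in WT 1 and WT 2 and at 137 and 210 CPM in null 1 and null 3. In mutant 1 it was at 62.1 CPM, within the WT range, and in mutant 2 and mutant 3 at 2.11 and 6.03 CPM. Il18, an inflammasome-processed interleukin, was lower in every mutant and null line than in WT. Its values were 12.6 and 10.1 CPM in WT, 5.35, 5.17 and 2.91 CPM in mutant, and 5.57 and 1.94 CPM in null lines. Neither log2 fold change against WT passed (mutant -1.34, SE 0.537, adjusted p = 0.15, and null -1.60, SE 0.611, adjusted p = 0.222).

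Il33 and Il6 were carried by single lines. Il33, a nuclear alarmin, reached 15.3 CPM in mutant 1, with 13.8 CPM in null 3 and at most 0.812 CPM in the other 5 libraries, with no count in mutant 2. Il6, a cytokine of the acute phase response, had no count in either WT library. Null 3 held 110 of the 114 null counts and mutant 1 held 31 of the 35 mutant counts. Against a floor of 3 counts over the WT libraries, Il6 was at least 26.8-fold higher in null and at least 3.61-fold higher in mutant lines. Without null 3 the null bound was 1.69-fold, and without mutant 1 the mutant level was under the floor. Il11, a relative of Il6, stayed between 0.206 and 0.997 CPM in all libraries. Il1b had at most 5 counts in any library.

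**Figure D2:**
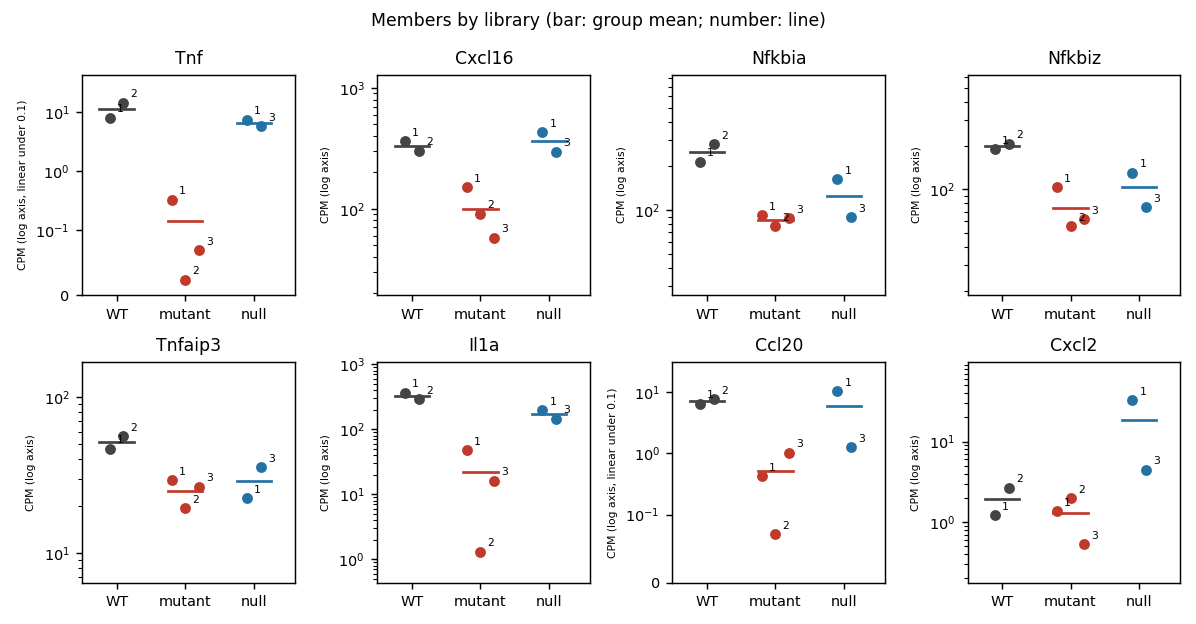
Points give CPM for each library on log axes (linear under 0.1 CPM where a panel says so), bars the group mean, and numbers the line, for 8 genes. Tnf and Il1a in the 3 mutant lines lie below every WT and null line, while Cxcl2 is at 32.8 CPM in null 1 alone.

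CXC chemokines divided by gene and by line. Cxcl16, a membrane-bound chemokine that is shed by a metalloprotease, was the 1 chemokine called by edgeR. It was at 363 and 301 CPM in WT 1 and WT 2, at 151, 90.7 and 57.5 CPM in mutant 1, 2 and 3, and at 429 and 297 CPM in null 1 and null 3. Mutant lines did not overlap with WT or null lines, and WT and null lines overlapped. Cxcl16 fell in mutant against WT (log2 fold change -1.74, SE 0.391, edgeR adjusted p = 0.0479), close to the threshold and lost with upper-quartile factors at 0.0533, and was at -1.87 (SE 0.392, adjusted p = 0.258) against null. Its annotated span overlaps that of Zmynd15 on the opposite strand, which was at most 2.6 CPM in any library.

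The neutrophil attractants Cxcl1, Cxcl2 and Cxcl5 bind the same receptor, yet their levels did not run in parallel. Cxcl1 was at 110 and 123 CPM in WT, 92.7, 5.05 and 30.6 CPM in mutant 1, 2 and 3, and 175 and 104 CPM in null 1 and null 3. Cxcl2 was at 1.22 and 2.68 CPM in WT, 1.36, 1.99 and 0.528 CPM in mutant, and 32.8 and 4.48 CPM in null 1 and null 3. So mutant 2, the lowest line for Cxcl1, was the highest mutant line for Cxcl2, where mutant lines had 67, 84 and 23 counts. The promoters of both genes hold the same kappaB word printed above, and its part in these levels was not tested. Cxcl5 was at 29.0 and 15.3 CPM in WT, 149, 1.07 and 34.3 CPM in mutant, and 91.5 and 90.2 CPM in null lines, a 139-fold range among mutant lines. Of the 3, Cxcl2 alone had an unadjusted p under 0.05 in any comparison, at log2 fold changes of 3.27 in null against WT (SE 1.09, adjusted p = 0.186) and -3.84 in mutant against null (SE 0.946, adjusted p = 0.272).

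Cxcl12, the ligand of CXCR4 and a chemokine typical of stromal cells, was at 0.0680 and 0.406 CPM in WT 1 and WT 2. It was at 37.8, 2.33 and 11.5 CPM in mutant 1, 2 and 3 and at 0.183 and 22.1 CPM in null 1 and null 3. All mutant lines and null 3 were above WT. The log2 fold change was 6.39 in mutant (SE 2.41, adjusted p = 0.133) and 5.76 in null against WT (SE 2.4, adjusted p = 0.247), and without null 3 the latter was -0.13. Cxcl14, a chemokine of epithelial surfaces, was at 1.02 and 1.06 CPM in WT, 8.46, 1.66 and 3.60 CPM in mutant, and 13.1 and 6.23 CPM in null lines. It was above WT in every other line (mutant 2.14, SE 0.795, adjusted p = 0.129, and null 3.21, SE 0.868, adjusted p = 0.141).

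The interferon-inducible attractants of T cells were low throughout. Cxcl10 had 4 and 0 counts in WT and 24 to 68 counts in every other library, or 0.570 to 2.47 CPM. Its annotated span overlaps Art3 on the opposite strand, which was at 0.0475 to 4.54 CPM and highest in mutant 1. The log2 fold change of Cxcl10 against WT was 3.66 in mutant (SE 1.22, adjusted p = 0.106) and 4.23 in null lines (SE 1.29, adjusted p = 0.164). Cxcl11 had no count in any library.

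Among the other chemokines, Ccl20, which attracts CCR6-bearing dendritic cells and lymphocytes, was at 6.46 and 7.63 CPM in WT. It was at 0.427, 0.0712 and 1.03 CPM in mutant 1, 2 and 3, and at 10.4 and 1.25 CPM in null 1 and null 3. Mutant lines were below all WT and null lines, with log2 fold changes of -3.78 against WT (SE 1.19, adjusted p = 0.0934) and -3.50 against null (SE 1.17, adjusted p = 0.306). Cx3cl1, a chemokine tethered to the membrane by a mucin stalk, was at 1.80 and 1.95 CPM in WT, 32.6, 2.11 and 51.9 CPM in mutant, and 2.59 and 13.8 CPM in null lines. It was above WT in all 5 other lines, by little in mutant 2 and null 1 (mutant against WT 3.94, SE 1.41, adjusted p = 0.12).

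The monocyte attractants Ccl2 and Ccl7 were highest in mutant 1. Ccl2 was at 39.3, 1.12 and 4.22 CPM in mutant 1, 2 and 3, at 6.70 and 11.2 CPM in WT, and at 14.7 and 14.6 CPM in null lines. Ccl7 reached 12.5 CPM in mutant 1, with 6.26 CPM in null 3 and at most 0.882 CPM elsewhere, with no count in mutant 2. Ccl5, an attractant of T cells, was between 0.0812 and 1.03 CPM in all libraries.

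**Figure D3:**
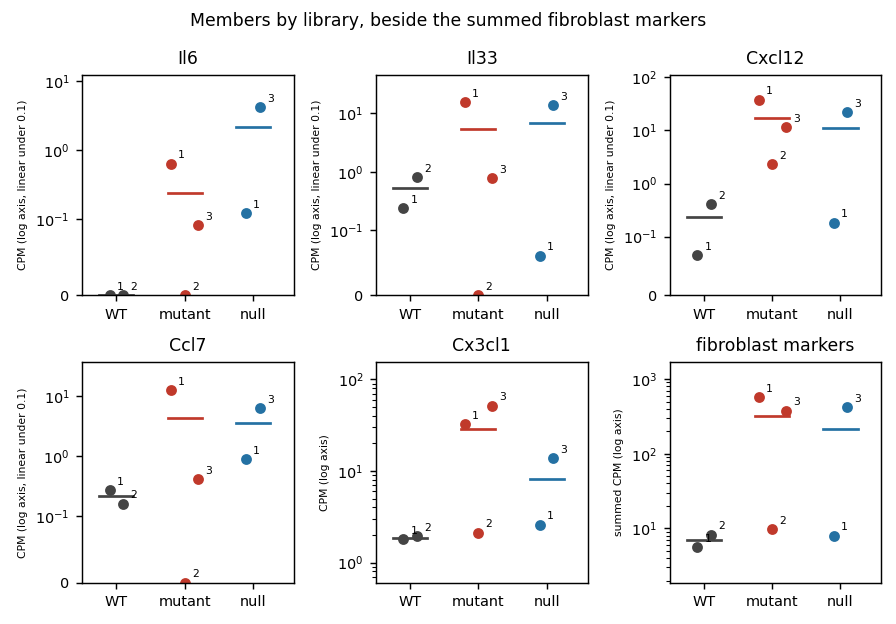
Points give CPM for each library on log axes (linear under 0.1 CPM where a panel says so), bars the group mean and numbers the line, for 5 genes and for the sum of 8 fibroblast markers. The marker sum is high in mutant 1, mutant 3 and null 3, where Cxcl12 and Cx3cl1 also have their 3 highest values.

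The fibroblast marker sum given above stands beside 5 of these genes. They were picked from the listed genes after the values were seen, so the lines they share with the sum are a description. Cxcl12 and Cx3cl1 had their 3 highest values in mutant 1, mutant 3 and null 3, the 3 libraries with the highest sums. Il6, Il33 and Ccl7 had their highest values in mutant 1 and null 3, whereas mutant 3, also high in the sum, had 0.0918, 0.780 and 0.413 CPM, below null 1 for Il6 and Ccl7 and below WT 2 for Il33. The part of these markers in the chemokine values was not tested. In bulk RNA, a larger share of cells of another type and more RNA per cell cannot be told apart.

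Of the 5 NF-kB subunit genes, Rela and Relb varied least across the lines, and Rel and Nfkb1 varied more. Rela, the main activating subunit, was at 85.5 and 89.5 CPM in WT, 95.9, 82.0 and 89.1 CPM in mutant, and 101 and 91.9 CPM in null lines. Relb, a subunit of the alternative pathway, stayed between 27.2 and 36.8 CPM in all 7 libraries. Nfkb1, the precursor of p50, was at 114 and 140 CPM in WT, 179, 143 and 165 CPM in mutant, and 86.5 and 114 CPM in null lines, with a log2 fold change of 0.70 in mutant against null (SE 0.194, adjusted p = 0.287). Nfkb2, the precursor of p52, was at 89.8 and 82.0 CPM in WT and 57.2 to 76.9 CPM in the other 5 libraries. Rel was at 10.4 and 15.1 CPM in WT, 7.26, 10.3 and 10.4 CPM in mutant, and 6.45 and 5.20 CPM in null lines (null against WT -1.13, SE 0.371, adjusted p = 0.183). The log2 fold changes of the 5 genes lay between -0.45 and 0.36 in mutant against WT, and none was called.

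Of the 7 inhibitors and feedback genes, Nfkbia, Nfkbiz and Tnfaip3 were below both WT lines in every mutant and null line. Over all genes tested, 25.7% were below both WT lines in every mutant line and 27.1% in every null line. The share that met both conditions at once was not computed, so the joint order of these genes is a description. Nfkbia encodes IkB alpha, the inhibitor that NF-kB itself restores after each activation. It was at 214 and 283 CPM in WT 1 and WT 2, at 92.0, 77.6 and 87.9 CPM in mutant 1, 2 and 3, and at 162 and 89.3 CPM in null 1 and null 3. All mutant and null lines were below both WT lines, and mutant and null lines overlapped. Nfkbia fell in mutant against WT (log2 fold change -1.53, SE 0.267, edgeR adjusted p = 0.0307) and was at -0.99 (SE 0.299, adjusted p = 0.163) in null against WT.

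Nfkbiz, a nuclear relative that modifies NF-kB target choice, and Tnfaip3, the ubiquitin-editing enzyme A20, had the same order without passing. Nfkbiz was at 188 and 206 CPM in WT, 104, 55.5 and 62.0 CPM in mutant, and 130 and 75.5 CPM in null lines (mutant against WT -1.42, SE 0.333, adjusted p = 0.0525). Tnfaip3 was at 46.6 and 56.1 CPM in WT, 29.3, 19.3 and 26.7 CPM in mutant, and 22.4 and 35.5 CPM in null lines (mutant against WT -1.03, SE 0.277, adjusted p = 0.067). For both genes no mutant or null line reached the WT values.

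The other inhibitors and feedback genes did not follow this order. Nfkbib, IkB beta, was between 35.4 and 72.9 CPM with its lowest value in WT 2. It overlaps the annotated span of Sirt2 on the opposite strand, a gene at 58.2 to 105.5 CPM. Nfkbie, IkB epsilon, was at 7.91 CPM in mutant 1 and between 1.21 and 4.35 CPM elsewhere. Bcl3, a nuclear IkB protein, was between 8.95 and 17.7 CPM. Birc3, an inhibitor of cell death in TNF signalling, was at 6.4 and 7.14 CPM in WT, 7.16, 1.97 and 1.88 CPM in mutant, and 13.1 and 9.15 CPM in null lines (mutant against null -1.60, SE 0.648, adjusted p = 0.347).

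The 2 effector targets differed from each other. Icam1, an adhesion molecule for leukocytes, was at 7.35 and 8.53 CPM in WT, 7.85, 22.4 and 62.9 CPM in mutant 1, 2 and 3, and 10.9 and 15.8 CPM in null lines (mutant against WT 1.97, SE 0.820, adjusted p = 0.162). Ptgs2, the inducible cyclooxygenase, was at 1123 CPM in mutant 1 and between 181 and 629 CPM in the other 6 libraries. Mutant 1 thus held the highest Ptgs2 value and the lowest mutant value of Icam1.

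**Figure D4:**
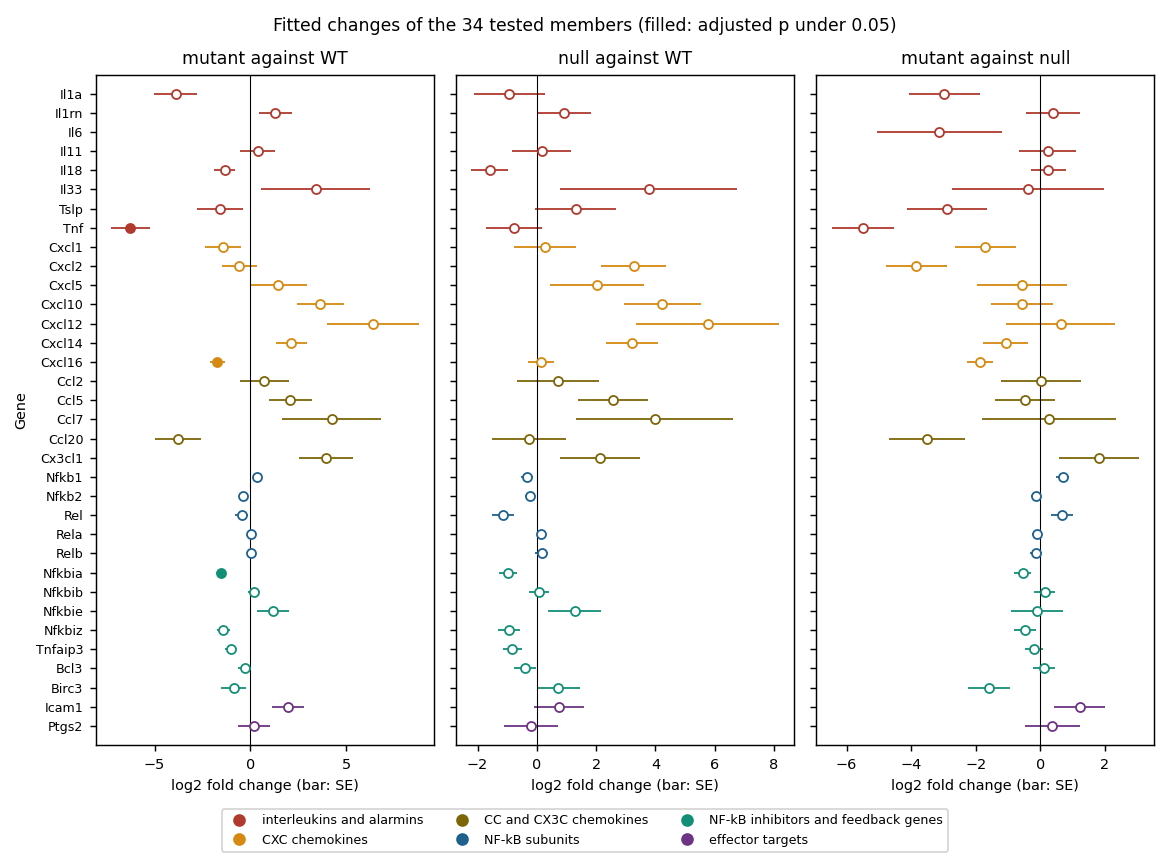
Points give fitted log2 fold changes with SE bars for the tested genes in 3 comparisons, filled where the edgeR adjusted p is under 0.05 and coloured by role. Il6 is left out of both comparisons with WT, where WT had no count. Tnf, Cxcl16 and Nfkbia in mutant against WT are the filled points, and the NF-kB subunits have short bars, with log2 fold changes from -1.13 (Rel, null against WT) to 0.70 (Nfkb1, mutant against null).

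Mutant lines were first set against WT lines, a contrast of p53R172H together with 4NQO and with the Xist difference given above. In edgeR, Tnf, Cxcl16 and Nfkbia fell and no listed gene was called higher. These 3 of 34 compare with 4.13% of all 13768 genes called lower, 3.3% called higher and 7.42% called in all. DESeq2 called 5 listed genes higher (Cxcl10, Cxcl12, Cxcl14, Cx3cl1 and Icam1), with 13% of the genes it tested called higher. It called 7 lower (Il1a, Tnf, Cxcl16, Ccl20, Nfkbia, Nfkbiz and Tnfaip3), with 11.1% of the genes it tested called lower. In edgeR an unadjusted p under 0.05 was found for 14 of the 34 (30.5% of all genes). Libraries did not overlap, with mutant lower, for 11 of the 34 (25.7% of all genes) and, with mutant higher, for 6 (26.9% of all genes). The median log2 fold change was 0.10 against 0.08 over all genes tested, and Il6 at its bound lies above that median as its fitted value does. All 3 calls were lost without WT 1, WT 2, mutant 2 or mutant 3. Over all genes, 37 were called without mutant 2 and 6 without mutant 3, against 1022 with every library. Without WT 1 or WT 2 only 1 WT line remained. Without mutant 1, edgeR called 7 listed genes lower (Il1a, Tslp, Tnf, Cxcl16, Nfkbia, Nfkbiz and Birc3) and 1, Icam1, higher, where 5.93% of all genes in that fit were called lower and 4.68% higher.

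Null lines were then set against WT lines, a contrast of p53 loss together with 4NQO and with the same Xist difference. No listed gene was called by edgeR or limma-voom, 10 of 34 had an unadjusted p under 0.05 in edgeR (20.2% of all genes), and DESeq2 called Cxcl2, Cxcl10 and Cxcl14 higher and Rel and Nfkbia lower. DESeq2 called 7.2% of the genes it tested higher and 5.21% lower. Over all genes, edgeR called 0.138%, with 0.0726% higher and 0.0654% lower. All 7 tested CXC chemokines had a log2 fold change above 0, as had 53.6% of all genes tested. The median was 3.21 for these chemokines and 0.06 over all genes tested. Cxcl12 was at -0.13 without null 3. In null 3, Cxcl1 and Cxcl16 were below both WT lines, with log2 ratios to the WT mean of -0.16 and -0.15. The count of 7 therefore depends on single null lines for Cxcl12, Cxcl1 and Cxcl16. Null lines were above WT without overlap for 14 of the 34 genes (29.1% of all genes) and below for 8 (27.1% of all genes).

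Mutant and null lines both have the 4NQO label, and their contrast is of the missense allele and p53 loss. No listed gene was called by edgeR or limma-voom, where 0% of all genes was called by edgeR. In edgeR 7 of 34 had an unadjusted p under 0.05 (14% of all genes), and DESeq2 called Tnf, Cxcl2, Cxcl16 and Ccl20 lower, with 3.12% of the genes it tested called lower. Those 4 genes, with Il1a, Tslp, Cxcl1 and Birc3, were the 8 that were lower in every mutant line than in either null line (15.1% of all genes). Nfkb1 and Rel were the 2 that were higher in every mutant line (16% of all genes). The comparisons with WT share the WT libraries, so their values stand side by side and their agreement is not counted.

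The mutant lines differed more among themselves in cytokines and chemokines than in the NF-kB subunits. The spread was measured as the SD of log2(CPM + 0.5) over the 3 mutant lines, for genes with a mean of 5 CPM or more there. A mean of this kind also admits genes that are high in 1 line, such as Il33. The median SD was 2.39 for 4 interleukins and alarmins, 1.97 for 4 CXC chemokines, 2.34 for 2 other chemokines and 1.44 for the 2 effector targets. It was 0.166 for the 5 subunits and 0.308 for 5 inhibitors and feedback genes, against 0.248 over the 10305 genes at this level. The other 2 inhibitors and feedback genes, under 5 CPM, varied more, with an SD of 1.18 for Nfkbie and 0.958 for Birc3. Cxcl16, at 0.690, was the least variable chemokine of this set, and Nfkbia, at 0.126, the least variable inhibitor.

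**Figure D5:**
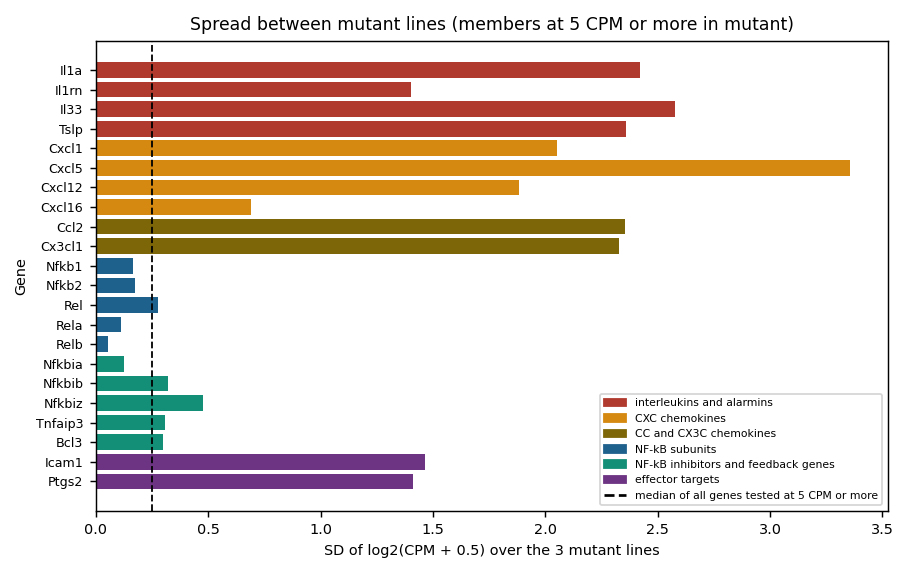
Bars give the SD of log2(CPM + 0.5) over the 3 mutant lines for the 22 listed genes with a mean of 5 CPM or more in those lines, coloured by role. The dashed line is the median over all tested genes at that level (0.248), and the bars of cytokines, chemokines, Icam1 and Ptgs2 all pass it by more than the subunits and inhibitors do.

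Pairs of lines were compared in the same way. With any 1 mutant line left out, the higher of the remaining mutant lines exceeded the lower by a median of 4.72 to 25.4-fold for interleukins and alarmins and 3.10 to 15.2-fold for CXC chemokines. For subunits this ratio was 1.04 to 1.21, and for all genes 1.18 to 1.26. Between the WT lines it was 1.53 for the 5 interleukins and alarmins at 5 CPM or more in WT, 1.21 for 3 CXC chemokines and 1.23 for the subunits, with 1.18 for all genes. Between the null lines the ratios were 1.53 for 5 interleukins and alarmins, 1.85 for 6 CXC chemokines, 4.64 for 3 other chemokines, 1.65 for 6 inhibitors and feedback genes and 1.14 for the subunits, with 1.23 for all genes. No test was made of these spreads.

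Other genes of the pathway came from 5 further lists, with calls by edgeR. Among 29 receptors, 19 were tested, and in mutant against WT Il6st rose and Il18rap fell. Il6st encodes gp130, the signalling chain shared by receptors for interleukins 6 and 11. It was at 94.2 and 118 CPM in WT, 283, 311 and 253 CPM in mutant, and 204 and 259 CPM in null lines, with all mutant and null lines above WT. Its log2 fold change in mutant against WT was 1.41 (SE 0.198, adjusted p = 0.0227). Il18rap, a chain of the interleukin 18 receptor, was at 1.29 and 1.38 CPM in WT and 0.142 to 0.183 CPM in mutant lines (-3.01, SE 0.659, adjusted p = 0.0454).

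None of 31 adaptors and kinases upstream of NF-kB was called by edgeR or limma-voom, with 10 at an unadjusted p under 0.05 in mutant against WT in edgeR (30.5% of all genes). DESeq2 called 2 of the 31 higher and 4 lower in that comparison, with 13% and 11.1% of the genes it tested. The 2 with the smallest p were Irak3 and Ikbkb. Irak3, an inhibitor of receptor signalling, was at 0.204 and 0.162 CPM in WT and between 0.925 and 10.0 CPM in the other lines. Ikbkb, the kinase that marks IkB proteins for destruction, was at 85.3 and 117 CPM in WT and 46.6 to 59.5 CPM in mutant lines (-0.88, SE 0.228, adjusted p = 0.0624).

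Of 11 genes for inflammasomes and cytokine shedding, 8 were tested. Casp1, the protease that matures interleukins 1 beta and 18, rose in mutant lines, from 3.13 and 2.44 CPM in WT to 16.7, 19.6 and 62.3 CPM (log2 fold change 3.55, SE 0.750, adjusted p = 0.0429). Null lines had 29.5 and 14.0 CPM. Adam17, the enzyme that sheds TNF from the cell surface, fell from 122 and 133 CPM to 63.5, 51.5 and 67.6 CPM (-1.07, SE 0.223, adjusted p = 0.0419), and null lines had 49.8 and 77.3 CPM.

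Of 33 other cytokines and chemokines, 31 were in the table and 13 tested. Lif, a cytokine that signals through gp130, fell in mutant lines, from 88.2 and 111 CPM in WT to 27.8, 22.7 and 27.2 CPM (-1.94, SE 0.192, adjusted p = 0.0139). Null lines had 66.4 and 52.7 CPM. The interleukin 36 gene Il1f6 was picked after its values were seen. It had 6.19 and 10.6 CPM in WT, no count in mutant 2 and mutant 3, 0.244 CPM in mutant 1, and 4.84 and 0.759 CPM in null lines (mutant against WT adjusted p = 0.0632). Of 18 other NF-kB targets, 17 were tested, and Plau and Bcl2l1 fell in mutant lines. Plau, the urokinase protease, was at 433 and 331.7 CPM in WT and 72.0, 33.3 and 39.6 CPM in mutant lines (-2.98, SE 0.400, adjusted p = 0.0212). Bcl2l1, a survival gene, fell by 0.76 on the log2 scale (SE 0.152, adjusted p = 0.0384). No gene of these 5 lists was called in null against WT or mutant against null by edgeR or limma-voom. Of their 88 tested genes, 20 and 16 had an unadjusted p under 0.05 in edgeR (20.2% and 14% of all genes). DESeq2 called 7 higher and 6 lower in null against WT, with 7.2% and 5.21% of the genes it tested. In mutant against null it called 10 lower, with 3.12% of the genes it tested. In mutant against WT, edgeR called 7 of the 88, where 7.42% of all genes were called. Each of these 7 calls was lost in 5 to 8 of the 13 or 14 alternative fits.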

How the data were processed

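The authors deposited raw read counts per gene name in one table of 24047 names. STAR 2.5.1b and mouse build mm9 are named, per the submitters' processing notes. Per the labels' protocols, libraries came from a stranded mRNA kit. How reads were counted, with which annotation and strand setting, is not given in the sources used here. Values of genes with an opposite-strand neighbour, and of the paralogs Cxcl1 and Cxcl2, carry that uncertainty. So do those of Nfkb1, whose annotated span overlaps Gm43430 on the same strand. The 92 spike-in names, with 0 counts in total, were left out, and 27 date-like names stayed in the fit. No replicate pair matched within counting error (chi-square over its degrees of freedom 58.8 to 247.8).

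Tests used R 4.3.3 and edgeR 4.0.16 (quasi-likelihood F test, TMM factors, default filter by group, one fit of all 7 libraries, Benjamini-Hochberg adjustment over 13768 genes, threshold 0.05), with SE from the fold change and F statistic. The fit was run on simulated counts with the same spread for every gene. The genes here differ in spread, so that run does not show how the fit treats the most variable ones. Alternatives used limma 3.58.1, DESeq2 1.42.0, other factors, filters and fits. All listed genes were described, and from each further list up to 4 called genes, or else the 2 with the smallest p. The genes and lists were chosen with earlier results of these data known. Promoters are from RefSeq, GRCm38.p6, and none of chromosome 18 was used.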

Additional observations from a re-analysis of the deposited data

How the results depend on the processing

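Of 40 single-gene results with a test, 39 kept their direction in every alternative that gave a value. The exception was Cxcl12 in null against WT, at -0.13 without null 3 and up to 7.27 without WT 2, where the cause was not tested beyond the library left out. The adjusted p of Tnf, Cxcl16 and Nfkbia in mutant against WT ranged from 6.50e-11 to 0.187, from 0.000278 to 0.229 and from 8.40e-06 to 0.217. DESeq2 gave 5 listed genes higher and 7 lower in mutant against WT (3268 genes in all), 3 higher and 2 lower in null against WT (1632 in all), and 4 lower in mutant against null (632 in all). A fit of only the groups compared gave 5 listed genes lower in mutant against WT (1521 genes in all). With a replicate block from the numbers in the titles, 0 listed genes and 0 genes in all were called in mutant against WT, and 0 genes in null against WT. Correlations of same-numbered lines' deviations were -0.0227 and -0.0120 for mutant and WT, 0.149 for the 1 pair of null and WT, and -0.361 and -0.0110 for mutant and null. WT and null had 2 lines each, whose deviations mirror each other, so each value changes sign with the other line of that group. Mutant 2 and null 1, with unlike numbers, had 0.386. These correlations therefore cannot show whether the numbers pair the lines. In null against WT, 19 genes were called in all, against 0 by limma-voom, 55 with the newer quasi-likelihood form and 77 with no filter. In mutant against null, 0 genes were called in all, against 1 with RLE factors, upper-quartile factors, the newer form or a filter of 5 CPM in 2 libraries, and 2 with no filter. Leaving out each library in turn gave 0 to 1 listed genes higher and 0 to 7 lower in mutant against WT, with 0 to 1420 genes in all, against 1022 with every library. It gave 0 to 55 genes in null against WT and 0 to 22 in mutant against null, where 22 came without null 3. A group left with 1 line was assumed to vary like the others. WT 2, at 12751118 counts, limits the low genes: 1 count there is 0.0812 CPM. The causes of these changes were not tested, apart from fewer lines or genes entering a fit.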
